A study of Mus musculus with 6 samples.

Results

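The 8 genes of glycine transmission were measured in whole brain of mice fed with or without PLDP: the transporters Slc6a5 and Slc6a9, the receptor subunits Glra1, Glra2, Glra3, Glra4 and Glrb, and the scaffold gene Gphn. They were found by matching the Ensembl identifiers of the count files to these symbols in GENCODE M21, and all 8 were present among the 60354 features listed for each mouse. PLDP is a protease-treated decomposition product of porcine liver. Male C57BL/6NCrSlc mice, 16 weeks old when feeding began, received for 16 weeks a diet with 20% PLDP (PLDP mice) or a modified AIN-93M diet without PLDP and with matched calories (control mice). The PLDP diet also held less casein and soybean oil and more cystine and alpha-cornstarch than the control diet. There were 13 mice per diet. Whole-brain RNA was extracted the day after the last behavioral test, and that of 3 mice per diet was sequenced: control mice 2, 5 and 10, and PLDP mice 17, 22 and 26. The labels name no allele and no other agent, the PLDP diet was not fed during the behavioral tests, so that RNA was taken after a break in PLDP feeding, and each mouse gave 1 library of polyadenylated RNA. The genes were chosen by their p-values: an earlier fit of these same counts had ranked Slc6a5 first and Glra1 next by p among the features that were lower in PLDP mice. Their differences between the diets are therefore given as a description and serve as evidence for nothing further.

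Glycine is a fast inhibitory transmitter, used mainly by neurons of the spinal cord, the brainstem and some cerebellar interneurons. Released glycine opens pentameric chloride channels built from alpha subunits and the beta subunit GLRB, which binds the scaffold protein gephyrin beneath the postsynaptic membrane. The neuronal transporter GlyT2 (Slc6a5) returns glycine to the terminal for refilling of vesicles, and the transporter GlyT1 (Slc6a9), found largely on astrocytes, clears it from the cleft and from around NMDA receptors.

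Counts on features totalled 18797061 to 23938729 per mouse, with 28238 to 29219 features detected, and the totals of the diets overlapped. PLDP mouse 17 stood apart from its group. The chi-square per gene was 5.39 against PLDP mouse 22 and 5.10 against PLDP mouse 26, whereas the other same-diet pairs gave 2.34 to 3.12. The unit of level is CPM, a count divided by its TMM-scaled library total, and a log2 fold change is the PLDP level over the control level in an edgeR quasi-likelihood fit over the 18580 features that passed a filter on low counts. Neuronal, astrocyte and oligodendrocyte markers were present in every mouse. In whole brain, fewer cells of a type and less RNA per cell cannot be told apart.

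Sequences upstream of annotated starts of the gene with the lowest PLDP to control ratio, Slc6a5, and of a gene whose diets overlapped, Glrb, are shown as the genome context of the 2 genes. They are taken from RefSeq (build GRCm38.p6), run 5′ to 3′ on the gene's strand, hold no annotated exon, and have each CG dinucleotide in capitals. The upstream Slc6a5 stretch ends at the base before the annotated gene and so stops short of its RefSeq start, and the downstream stretch lies within the gene and ends at the base before the other RefSeq start. The Slc6a5 stretches are chr7:49910049-49910145 (+) and chr7:49911450-49911699 (+), and the Glrb stretch is chr3:80913661-80913910 (-).
Slc6a5, upstream stretch: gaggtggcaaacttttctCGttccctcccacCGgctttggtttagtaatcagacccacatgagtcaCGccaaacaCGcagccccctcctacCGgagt
Slc6a5, downstream stretch: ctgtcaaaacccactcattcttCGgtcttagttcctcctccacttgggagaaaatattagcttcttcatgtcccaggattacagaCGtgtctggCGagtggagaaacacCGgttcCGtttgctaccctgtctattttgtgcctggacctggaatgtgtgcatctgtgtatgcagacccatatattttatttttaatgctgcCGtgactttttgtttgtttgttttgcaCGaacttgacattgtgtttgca
Glrb: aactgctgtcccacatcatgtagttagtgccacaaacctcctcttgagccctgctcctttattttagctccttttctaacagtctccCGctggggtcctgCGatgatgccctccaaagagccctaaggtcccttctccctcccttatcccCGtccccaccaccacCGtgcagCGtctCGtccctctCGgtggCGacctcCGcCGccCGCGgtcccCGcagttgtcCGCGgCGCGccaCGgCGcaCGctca

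The stretches are 97, 250 and 250 bases long and held 5, 7 and 20 CG dinucleotides, in that order, so the first is not matched to the others in length or in place. RefSeq windows from 250 bases before to 50 bases after a start were matched for 7 of the 8 genes, 10 windows in all, with none for Glra1. Slc6a5 had 12 and 7 CG dinucleotides in its windows, close to the median of 7 over 32851 mouse windows. Glrb had 30, more than 88.3% of windows, and Gphn had 42, more than 97.0%. Glra4 lay at the low end with 3. The GC box GGGCGG, searched on both strands, was in 35.7% of all windows and in 5 of these 10, namely those of Glra2, Glra3, Glrb and Gphn and 1 of the 3 of Slc6a9. Neither Slc6a5 window held these letters. The windows thus differ in base composition between genes, and no measurement of binding or methylation was made here.

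Slc6a5 (ENSMUSG00000039728, chr7:49910146-49963856, + strand, build GRCm38 for this and all following gene positions) is the marker gene of glycinergic neurons. Its level was 49.4, 44.0 and 42.2 CPM in control mice 2, 5 and 10, and 31.0, 22.4 and 32.7 CPM in PLDP mice 17, 22 and 26. No PLDP mouse reached the level of a control mouse, and PLDP mouse 22 was the lowest of the 6. The mean was 45.2 ± 3.78 CPM in control mice and 28.7 ± 5.50 CPM in PLDP mice (SD, n = 3 each), which is 36.5% lower. The log2 fold change was -0.66 (SE 0.10). It was -0.51 without PLDP mouse 22 and -0.77 without PLDP mouse 26, the extremes over the omission of each mouse. These values rest on 534 to 1027 counts per mouse. The spread between PLDP mice, a coefficient of variation of 19.2%, was wider than the 4.07% that counting alone would give. No other annotated gene overlaps its exons.

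Slc6a9 (ENSMUSG00000028542, chr4:117834506-117875198, + strand) encodes the glial transporter. It measured 92.8, 87.2 and 84.9 CPM in the control mice and 85.8, 87.8 and 87.7 CPM in the PLDP mice. The diets overlapped, and all PLDP mice lay within the range of the control mice. The log2 fold change was -0.02 (SE 0.05). The exons of Slc6a9 overlap exons on the opposite strand of B4galt2, which had 1183 to 1610 counts per mouse, and of Ccdc24 and Gm17114, which had at most 2. The strand setting of the counting is not given in the sources used here, so reads in the shared stretch cannot be assigned with certainty. The 2 transporters thus differed in their values: Slc6a5 made up 27.5%, 26.5% and 26.2% of their summed level per kilobase of exon in the control mice, and 20.5%, 15.4% and 21% in the PLDP mice. This share follows from the Slc6a5 values, and whether the transporters responded differently to the diet was not tested.

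**Figure D1:**
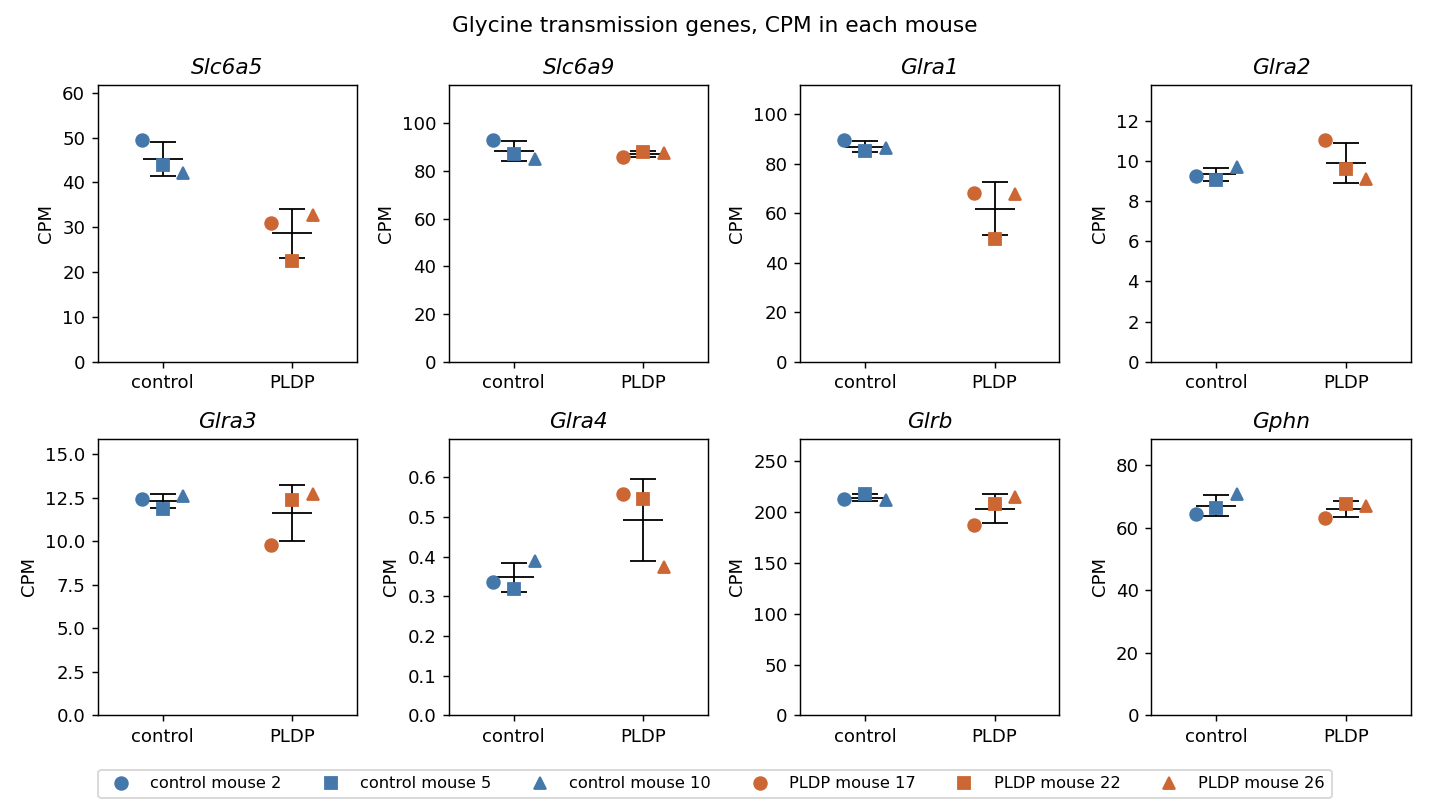
Level of each glycine transmission gene in CPM (vertical axes, each from 0) in the 3 control and 3 PLDP mice, with a point per mouse, a line at the mean and bars for the SD. The PLDP points lie below all control points for Slc6a5 and Glra1, and the diets overlap for the other 6 genes.

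Glra1 (ENSMUSG00000000263, chr11:55514238-55608198, - strand) encodes the alpha subunit of the adult receptor in cord and brainstem, and its loss-of-function alleles cause startle disease. It measured 89.5, 85.1 and 86.2 CPM in control mice 2, 5 and 10, and 68.3, 49.4 and 67.7 CPM in PLDP mice 17, 22 and 26. Here too the groups did not overlap, the control mice lay close together, and PLDP mouse 22 was again the lowest. The mean was 87.0 ± 2.30 CPM in control mice and 61.8 ± 10.7 CPM in PLDP mice (SD, n = 3 each), 28.9% lower. The log2 fold change was -0.50 (SE 0.09), -0.36 without PLDP mouse 22 and -0.58 without PLDP mouse 17. Among the control mice the coefficient of variation was 2.64%, close to the 2.33% of counting error, while among the PLDP mice it was 17.3% beside 2.77%. The exons of Glra1 overlap those of Gm12236 on the opposite strand, which had no count in any mouse.

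Glra2 (ENSMUSG00000018589, chrX:165129017-165327393, - strand) encodes the alpha subunit that predominates before birth. It measured 9.24, 9.03 and 9.70 CPM in the control mice and 11.02, 9.60 and 9.09 CPM in the PLDP mice. The diets overlapped, with PLDP mouse 17 the highest. On the log2 scale PLDP mice differed by 0.09 (SE 0.10), and by 0.007 without PLDP mouse 17.

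Glra3 (ENSMUSG00000038257, chr8:55940460-56130070, + strand) encodes an alpha subunit known from spinal pain circuits and some forebrain areas. It measured 12.4, 11.8 and 12.6 CPM in the control mice and 9.76, 12.4 and 12.7 CPM in the PLDP mice. PLDP mouse 17 was the lowest and the others were alike. The log2 fold change was -0.08 (SE 0.10), and it was 0.03 without PLDP mouse 17.

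Glra4 (ENSMUSG00000018595, chrX:136757674-136780141, - strand), a further alpha subunit gene, was close to undetected. It had 7, 7 and 8 counts in the control mice and 12, 13 and 7 counts in the PLDP mice, 0.318 to 0.558 CPM. It was the single gene of the 8 that did not pass the filter, and at this depth a difference was not detectable.

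Glrb (ENSMUSG00000028020, chr3:80843599-80913660, - strand) encodes the beta subunit, which anchors the receptor to gephyrin. It measured 212.9, 217.9 and 211.6 CPM in the control mice and 187.1, 207.8 and 214.5 CPM in the PLDP mice. The diets overlapped, and PLDP mouse 17 lay apart on the low side. A log2 fold change of -0.08 (SE 0.05) resulted, and without PLDP mouse 17 it was -0.02.

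Gphn (ENSMUSG00000047454, chr12:78226379-78684772, + strand) encodes gephyrin, which also clusters GABA-A receptors and makes the molybdenum cofactor. It measured 64.3, 66.1 and 70.8 CPM in the control mice and 63.1, 67.7 and 67.0 CPM in the PLDP mice. The ranges overlapped, and the log2 fold change was -0.02 (SE 0.05). An opposite-strand gene, Gm48226, shares exon sequence with it and had 181 to 232 counts per mouse.

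Of the 7 genes that passed the filter, Slc6a5 and Glra1 (2 genes) had an unadjusted p under 0.05 in edgeR, both lower in PLDP mice, and DESeq2 and limma voom gave the same genes. Over all 18580 features, 8.6% passed in either direction, 3.69% lower and 4.91% higher. For these genes each PLDP mouse lay below each control mouse, as it did for 6.9% of all features, and no gene of the 7 had each PLDP mouse above, against 7.29%. Log2 fold changes were below 0 for 6 of the 7 genes and for 50.2% of all features. The edgeR quasi-likelihood model fitted across all features gave Slc6a5 a Benjamini-Hochberg adjusted p of 0.0369, while the adjusted p was 0.0621 in DESeq2, 0.0361 in limma voom and 0.0509 in edgeR with library size as the only scaling. An adjusted p under 0.05 was reached by 0.0323% of features in either direction and by 0.00538% in the lower direction, where Slc6a5 was the single one. The same edgeR model gave Glra1 an adjusted p of 0.0592. As such p-values chose the genes, nothing is read from these counts. The median log2 fold change of the 7 genes was -0.08, beside -0.001 over all features.

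**Figure D2:**
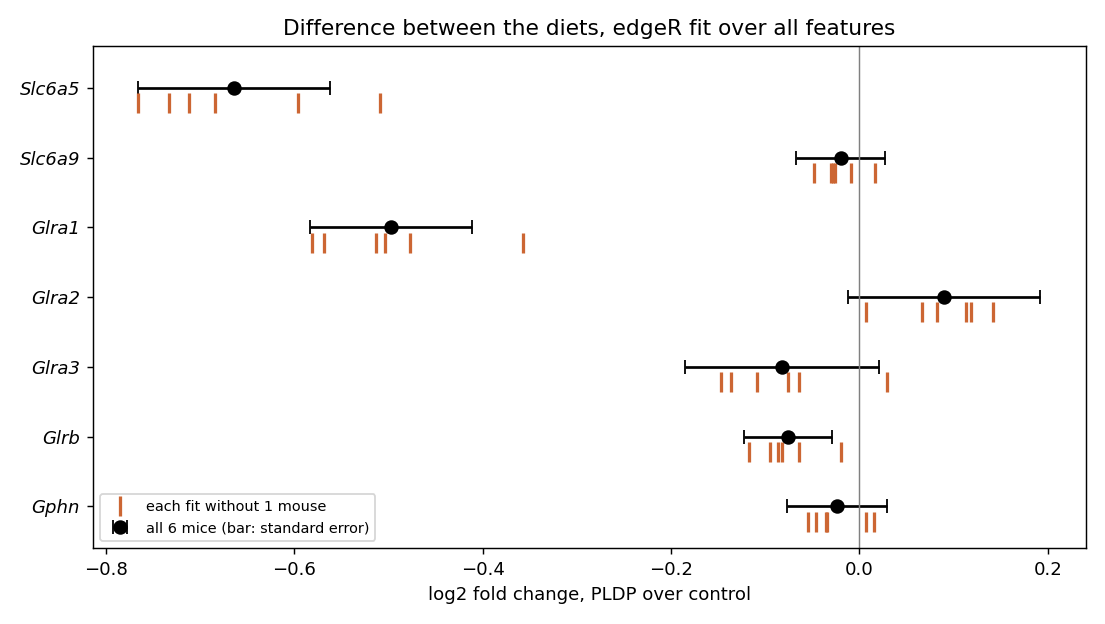
Log2 fold change, PLDP over control (horizontal axis), of the 7 glycine transmission genes that passed the filter, from edgeR, with the standard error as a bar and a tick for each fit without 1 mouse. Slc6a5 at -0.66 and Glra1 at -0.50 stay below 0 in each fit, while the ticks of Slc6a9, Glra3 and Gphn lie on both sides of 0.

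The order of levels among the 8 genes was read from CPM per kilobase of exon. In control mice Glrb was highest at 46.0 ± 0.719, followed by Glra1 at 36.0 ± 0.951 (mean ± SD, n = 3 each). Gphn at 17.9 ± 0.893 and Slc6a9 at 17.2 ± 0.790 came next and did not differ beyond their spread. Slc6a5 followed at 6.27 ± 0.524 CPM per kilobase, then Glra2 at 2.96 ± 0.109. Glra3 at 1.33 ± 0.0434 and Glra4 at 0.173 ± 0.0181 CPM per kilobase were the lowest. The order of the means was the same in PLDP mice, but Slc6a5, at 3.11 to 4.53 CPM per kilobase, then overlapped Glra2 at 2.88 to 3.50. The order depends in part on the length used: per kilobase of the longest transcript, Slc6a9 stood at 25.4 and Gphn at 18.8 in control mice.

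**Figure D3:**
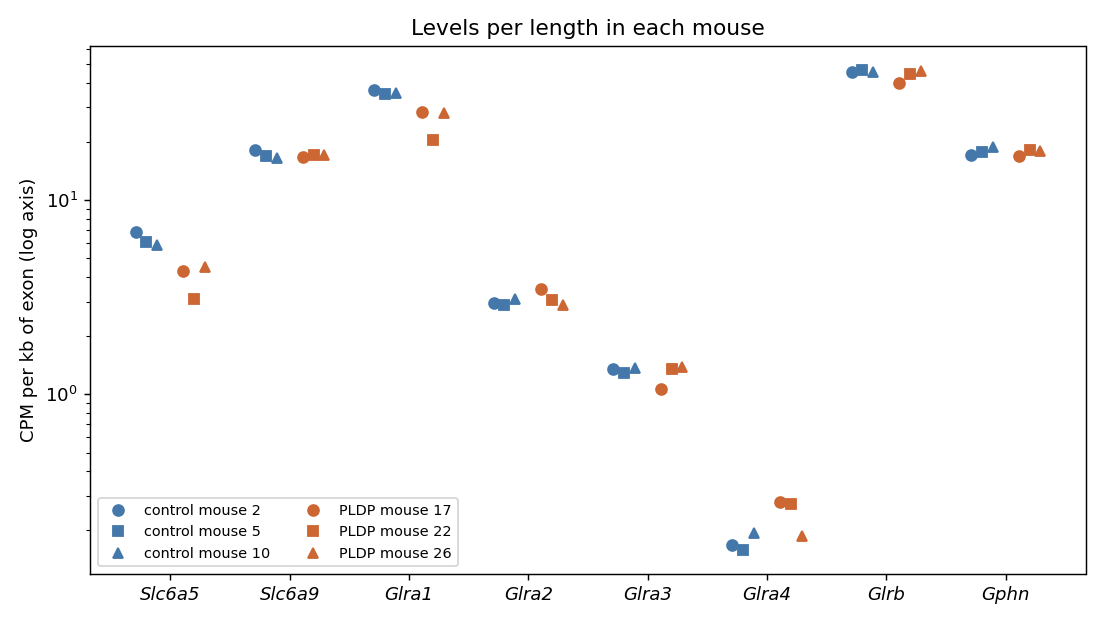
Level per length, in CPM per kilobase of exon on a log axis, of the 8 glycine transmission genes in each of the 3 control and 3 PLDP mice. Glrb and Glra1 are highest and Glra4 lowest in each mouse, and the Slc6a5 point of PLDP mouse 22 lies among those of Glra2.

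The alpha subunits were described by their shares of the summed alpha level per kilobase. Glra1 made up 89.3%, 89.1% and 88.5% in control mice 2, 5 and 10, and 85.4%, 81.5% and 86.3% in PLDP mice 17, 22 and 26. Glra2 made up 7.06% to 7.63% in the control mice and 8.87% to 12.1% in the PLDP mice. Glra1 was thus the main alpha transcript in each mouse. The higher Glra2 share of the PLDP mice goes with the lower Glra1 level, as the Glra2 level itself overlapped between the diets. The ratio of summed alpha subunits to Glrb per kilobase was 0.908, 0.845 and 0.888 in the control mice and 0.824, 0.563 and 0.705 in the PLDP mice. The beta transcript was thus in excess of the alpha transcripts in each mouse, with the lowest ratio in PLDP mouse 22.

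Slc6a5 and Glra1 were the most alike of these genes across mice. Pearson's r of their log2 CPM over the 6 mice was 0.99, and 1 of the other 18579 features was closer to Slc6a5. Since the points fall into 2 diets that both genes separate, the diet means were also removed: r was then 0.95, and 88 features were closer to Slc6a5. Both values are descriptions over 6 mice, with both genes read from the same library of each mouse. By r over the 6 mice, the named genes next to Slc6a5 were Glra1, Snapin, Slc32a1, Btrc and Paip2 (r from 0.974 to 0.987). Those next to Glra1 were H2afz, Slc6a5, Tmem60, Ccl6 and Kcnh2 (0.975 to 0.990). After removal of the diet means they were Il15, Scpep1, Dtymk, Fgf20 and Zfp125 for Slc6a5, and Cdk2, Ndufa12, Msto1, Mrpl15 and Htr3a for Glra1. Slc32a1 encodes the vesicular transporter that loads both glycine and GABA. It measured 175, 171 and 171 CPM in the control mice and 168, 161 and 167 CPM in the PLDP mice, so that the groups did not overlap, with the lowest value in PLDP mouse 22 as for Slc6a5 and Glra1. Its log2 fold change of -0.06 (SE 0.04) had an adjusted p of 0.717 in edgeR, beside the -0.66 of Slc6a5.

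The other genes of the pathway were taken from 6 lists of 80 genes, of which 75 passed the filter. In edgeR 4 had higher and 7 had lower values in PLDP mice by an unadjusted p of 0.05, and 0 had an adjusted p under 0.05. DESeq2 and limma voom also gave 0 after adjustment, with 7 and 12 genes at an unadjusted p under 0.05. The shares are to be read beside the 4.91% higher and 3.69% lower over all features. The count of lower genes was 1 without control mouse 2 or without control mouse 5, and the count of higher genes was 10 without PLDP mouse 17.

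Among the genes of glycine release, synthesis and breakdown, 1 of 12 was lower and 0 higher, and the median log2 fold change was -0.02. The lower gene was Dld, the dihydrolipoamide dehydrogenase that serves the glycine cleavage system and other complexes, at 129 ± 6.13 CPM in control mice and 119 ± 3.40 CPM in PLDP mice (SD, n = 3 each; edgeR adjusted p = 0.493). Of the 12 other amino acid transporters that carry glycine, 1 was lower and 0 were higher, with a median of -0.08. This was Slc1a5, a neutral amino acid exchanger, at 4.41 ± 0.278 CPM in control mice and 3.42 ± 0.229 CPM in PLDP mice (adjusted p = 0.477 in edgeR). No gene of either list was thus separated from the rest of the table after adjustment.

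Of the 15 inhibitory postsynapse and chloride genes, 2 were higher and 2 lower (median log2 fold change -0.004). Shisa7, an auxiliary subunit of GABA-A receptors, stood at 112 ± 3.49 CPM in control mice and 127 ± 7.77 CPM in PLDP mice (edgeR adjusted p = 0.283). Nlgn2, the adhesion protein of inhibitory synapses, stood at 234 ± 3.96 CPM in control mice and 254 ± 6.06 CPM in PLDP mice (edgeR adjusted p = 0.363). The lower genes were the actin regulators Pfn2 and Vasp, with log2 fold changes of -0.09 and -0.155. The chloride exporter Slc12a5 (KCC2) had a log2 fold change of -0.01 and overlapped between the diets.

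In the molybdenum cofactor pathway, for which gephyrin is an enzyme, 1 of 7 genes was higher and 0 were lower. Xdh, a molybdenum enzyme, was at 10.4 ± 0.422 CPM in control mice and 12.7 ± 0.758 CPM in PLDP mice (edgeR adjusted p = 0.363). Among 19 GABA-A receptor and GABA synthesis genes 0 were higher and 3 lower: Abat, which degrades GABA, and the receptor subunits Gabra5 and Gabrg1, with log2 fold changes of -0.095, -0.13 and -0.14. Gad2, a GABA-synthesizing enzyme, overlapped between the diets with a log2 fold change of -0.01. Among 10 genes of NMDA receptors, where glycine is the coagonist, 1 was higher and 0 were lower. This was Grin2b, at 188 ± 10.2 CPM in control mice and 213 ± 16.6 CPM in PLDP mice (edgeR adjusted p = 0.306). The median log2 fold changes of these 3 lists were -0.02, -0.02 and 0.03, beside -0.001 over all features.

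Glycinergic neurons lie mainly in hindbrain and spinal cord, so markers of regions and cell types were measured beside Slc6a5 and Glra1. Of 147 marker genes in 16 lists, 123 passed the filter. In edgeR, 5 had higher and 25 had lower values by an unadjusted p of 0.05, and 0 had an adjusted p under 0.05. DESeq2 and limma voom also gave 0 after adjustment, with 20 and 31 genes at an unadjusted p under 0.05. The counts of each marker list, too, are to be read beside the 4.91% higher and 3.69% lower over all features. The Hox genes, which keep a record of position along the hindbrain and cord, had the lowest median of the 16 lists. Of 23 listed, 11 passed the filter. Of these, 10 were lower and 0 higher (median log2 fold change -1.05), and 6 were lower without PLDP mouse 22. Some of the 11, such as Hoxb8, passed through their counts in the control mice, so the count and median depend on the filter. With at least 10 counts required in every mouse, 7 were lower. Their summed level was 33.5, 26.7 and 27.3 CPM in control mice 2, 5 and 10, and 22.8, 6.29 and 8.66 CPM in PLDP mice 17, 22 and 26. All PLDP sums were below all control sums, and those of PLDP mice 22 and 26 were far below. Hoxb8, expressed in the cord and caudal hindbrain, had 98, 65 and 68 counts in the control mice and 39, 0 and 0 counts in the PLDP mice, where a count of 0 allows up to 0.126 CPM in PLDP mouse 22 and 0.16 CPM in PLDP mouse 26. Hoxa5 was at 3.99, 4.31 and 4.56 CPM in the control mice and at 3.07, 0.839 and 1.07 CPM in the PLDP mice, and Hoxb3 at 3.37, 3.49 and 3.15 CPM and at 2.05, 1.22 and 1.6 CPM. In these genes too, PLDP mice 22 and 26 were the lowest. Of the 11 tested Hox genes, 7 had all PLDP mice below all control mice, beside 6.9% of all features. The other tested Hox genes overlapped between the diets, some of them among the 10 counted as lower. None of the 23 Hox genes was at 0 in every mouse, but some had a single count in 1 mouse. Each Hox gene that did not pass the filter was under 1 CPM in every mouse.

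Set against the control mean, the Hox sum was at 78.1%, 21.6% and 29.7% in PLDP mice 17, 22 and 26. Slc6a5 was at 68.6%, 49.6% and 72.3% in the same mice, and Glra1 at 78.5%, 56.8% and 77.9%. PLDP mouse 22 was thus lowest in all 3 measures. PLDP mice 17 and 26 had nearly equal Slc6a5 and Glra1 levels while their Hox sums differed. The part of hindbrain and cord content in the Slc6a5 and Glra1 values was not tested. Slc6a9 was at 97.2%, 99.4% and 99.3% of the control mean in these mice, and Glrb at 87.4%, 97.1% and 100%.

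**Figure D4:**
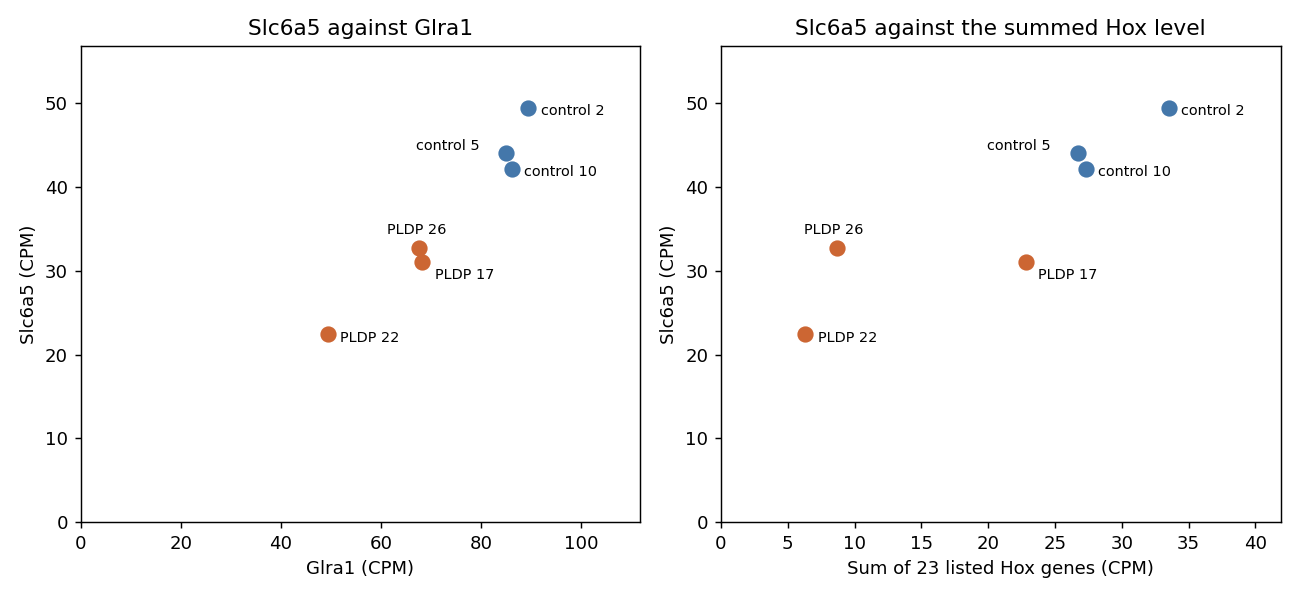
Slc6a5 level in CPM (vertical axis) against Glra1 (left) and against the sum of 23 Hox genes (right), both in CPM, with 1 labelled point per mouse. PLDP mouse 22 is lowest in all measures, and PLDP mice 17 and 26, at 31.0 and 32.7 CPM of Slc6a5, have Hox sums of 22.8 and 8.66 CPM.

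Other hindbrain lists were lower in part. Of 15 tested genes of hindbrain and spinal cord neurons, 4 were lower and 0 higher, among them Pax8 and Spp1 with log2 fold changes of -1.02 and -0.19, and the summed level was 290 to 320 CPM in control mice and 258 to 300 CPM in PLDP mice. The sums overlapped. Of 8 tested genes of brainstem motor neurons, 3 were lower and 0 higher. They were Slc5a7, the choline transporter, Prph, an intermediate filament, and Calca, the CGRP precursor, with log2 fold changes of -0.60, -0.55 and -0.51, and Prph and Calca overlapped between the diets. Chat and Slc18a3, which define cholinergic neurons, also overlapped and did not pass, with log2 fold changes of 0.03 (SE 0.14) and -0.10 (SE 0.145). The summed level of this list was 61.9 to 69.0 CPM in control mice and 53.1 to 58.6 CPM in PLDP mice, with no overlap. These sums follow in part from Slc5a7, at 10.7 to 11.7 CPM in control mice and 6.67 to 8.98 CPM in PLDP mice. Of the 8 tested genes, 2 had all PLDP mice below all control mice, Slc5a7 among them. The part of these lists in the Slc6a5 and Glra1 values was likewise not tested.

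The cerebellum also holds glycinergic cells, and its 2 lists were measured as well. Of 10 granule cell genes, 1 (Etv1) was higher and 0 lower, and of 9 Golgi and Purkinje cell genes 1 (Nxph1) was lower and 0 higher. Their summed levels overlapped, at 1930 to 2100 CPM and 2130 to 2420 CPM in control mice and at 1940 to 2180 CPM and 2290 to 2330 CPM in PLDP mice. Of 10 genes of cortical and hippocampal projection neurons, 4 were higher, among them Fezf2, Bcl11b and Neurod2, and 0 lower, with sums of 1350 to 1400 CPM in control mice and 1430 to 1450 CPM in PLDP mice. These sums did not overlap between the diets, but most of each was Slc17a7 (888 to 989 CPM), a vesicular glutamate transporter also on the granule cell list. Without Slc17a7, left out after the data were seen, the other 9 genes summed to 471, 472 and 462 CPM in control mice and 463, 495 and 504 CPM in PLDP mice, which overlapped.

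Of 8 oligodendrocyte genes 3 were lower (among them Ermn and Mbp) and 0 higher, of 8 astrocyte genes 1 (Aqp4) was lower, and of 7 general neuron genes 1 (Nefl) was lower, while the sums of all 3 lists overlapped between the diets. Of 7 choroid plexus genes 2 (Ttr and Folr1) were lower, with sums of 754 to 811 CPM in control mice and 592 to 752 CPM in PLDP mice. In the thalamus, striatum, meninges, blood, retina and pituitary lists, 0 of 7, 8, 7, 5, 4 and 1 tested genes passed in either direction. The retina sums were 17.1 to 17.6 CPM in control mice and 15.9 to 16.8 CPM in PLDP mice, and the sums of the other 5 lists overlapped. The pituitary genes other than Pomc were all under 1 CPM, and Lhb was at 0 in every mouse. The part of these tissues in the values of the glycine genes was not tested.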

How the data were processed

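Whole-brain RNA of 3 control and 3 PLDP mice was sequenced from stranded, polyadenylated libraries, and the authors deposited raw read counts per feature, 1 file per mouse, without normalization. The submitters' processing notes name cutadapt 2.9, HISAT2 2.2.0, featureCounts 2.6.0 and DESeq2 1.6.3 with the builds GRCm38 and GRCh38. The annotation, the strand setting and the treatment of shared reads are not given in the sources used here, so values of overlapping genes are uncertain to that extent. Totals were 18797061 to 23938729 counts per mouse. Ensembl identifiers were matched to GENCODE M21 (54777 of 55034 found). The 5320 numbered features without an Ensembl identifier took 0.628% to 0.655% of the counts and stayed in the fit.

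edgeR 4.0.16 (R 4.3.3) was used for the counts: filterByExpr (minimum count 10, minimum total 15), TMM, then glmQLFit and glmQLFTest on diet alone, and Benjamini-Hochberg adjustment over all 18580 features. CPM used TMM-scaled library sizes, and likeness used log2 CPM with a prior count of 1. The mice are separate animals. The fits were tested on simulated counts with 200 genes changed 2-fold. At an adjusted p under 0.05, edgeR recovered 171 of the 195 changed genes tested and called 16 unchanged features. Changes as small as those of Slc6a5 and Glra1 were not simulated. The genes and lists were chosen with earlier results of these data known. Named are the 8 genes, up to 3 genes per list and direction with the smallest unadjusted p under 0.05, Slc32a1, Slc12a5 and Gad2, and the 5 symbols most like Slc6a5 and Glra1 at a mean of at least 1 CPM. Chat, Slc18a3, Slc17a7, Pomc and Lhb fall outside this rule, being chosen after their values were seen. Genes that overlap exons of the 8 genes are named for their position. Some genes that this rule reaches are not reported here. Alternatives were other filters, scalings and lengths, a prior count of 5, DESeq2 1.42.0, limma 3.58.1 voom and omission of each mouse. Tables were joined in pandas 2.3.3 under Python 3.11.15, with matplotlib 3.10.9 for plots. The behavioral measurements were not analysed here.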

Additional observations from a re-analysis of the deposited data

How the results depend on the processing

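Slc6a5 and Glra1 kept their direction and an unadjusted p under 0.05 in edgeR under each filter, scaling and omission of a mouse, and in DESeq2 and limma voom, each run once with all mice. The log2 fold change of Slc6a5 was -0.69 to -0.66 over the 7 other filters, scalings and tests and -0.77 to -0.51 with each mouse left out, and that of Glra1 was -0.52 to -0.49 and -0.58 to -0.36. Their adjusted p was less stable. For Slc6a5 it ran from 1.39e-19 in edgeR without a filter to 0.223 without control mouse 2. For Glra1 it ran from 1.71e-16 in edgeR without a filter to 0.299 without control mouse 5. The fit without a filter had smaller standard errors, 0.067 and 0.054, beside 0.102 and 0.086 in the main fit. Over the other settings the lowest edgeR adjusted p was 0.000952 and 0.00086, both without PLDP mouse 17. With each mouse left out, Slc6a9 ran from -0.048 to 0.016 (the latter without control mouse 2), Glra3 from -0.147 to 0.029 (the latter without PLDP mouse 17) and Gphn from -0.055 to 0.015 (0.015 without control mouse 10, 0.007 without PLDP mouse 17). Glra2 ran from 0.007 (without PLDP mouse 17) to 0.142 (without PLDP mouse 26). Glrb ran from -0.12 to -0.02, and without PLDP mouse 26, at -0.117, it passed the unadjusted threshold in the edgeR model with an adjusted p of 0.660. The 2 lower glycine genes were 2 to 3 with each mouse left out, and 0 were higher.

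The 7 lower pathway genes became 4 under upper quartile scaling, 3 in DESeq2 and 1 to 7 with each mouse left out, and the 4 higher ones 4 to 10. The 10 lower Hox genes became 13 without a filter, 7 with at least 10 counts in every mouse, 6 in DESeq2 and 6 to 11 with each mouse left out. The 25 lower marker genes became 37 without a filter, 16 in DESeq2 and 16 to 32 with each mouse left out (16 without control mouse 2). The 5 higher marker genes became 8 without a filter and 2 to 8 with each mouse left out: 3 without control mouse 5, 8 without PLDP mouse 17 and 2 without PLDP mouse 22. The cause of these shifts was not tested. Per kilobase of the longest transcript in place of all exons, the Slc6a5 share of both transporters in control mice was 20.1% (26.7% as reported per exon length), the Glra1 share of the alpha subunits 87.8% (89.0%) and the ratio of alpha subunits to Glrb 0.586 (0.881). The r values of Slc6a5 and Glra1 were 0.99 and 0.95 with a prior count of 5 as well. No paired analysis was possible because the mouse numbers are not shared between the diets. Depth limits Glra4, with at most 13 counts per mouse.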
